A study of Mus musculus with 24 samples.

Results

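MicroRNA genes were examined in the transcriptome of mouse blastocysts, the hollow embryos that are about to implant. A gene was included when its symbol in GEO's platform annotation began with Mir and a digit, or with Mirlet7, and did not end in hg, the suffix of host genes. Only probe sets with 1 symbol were used, with the set of highest mean signal standing for each gene. This gave 296 of the 19938 genes on the array. Members were thus chosen by name, and measured values entered for 1 of them: for Mir713, which alone had more than 1 probe set, the set was selected on its mean signal over the 24 arrays. A cap of 300 genes by signal was not reached.

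The mice were of the outbred NMRI strain. From 3 weeks of age, future parents were fed for 9 weeks either on a control diet or on a high-fat diet that made them obese, and at 12 weeks they were mated. The pairs were lean with lean, an obese mother with a lean father, or an obese father with a lean mother. Pools of 3 blastocysts, all of 1 mother and all male (XY) or all female (XX), were taken on day 3.5 after mating, amplified and hybridised to 1 array each. With 4 arrays for each of 6 groups there were 24 arrays. The parents came from 7 animals on the high-fat diet and 14 on the control diet, so that some pools of a group may share a parent, and the labels do not tie pools to parents. P-values therefore measure the spread between pools. The Y-linked gene Eif2s3y averaged between 2.08 and 2.20 (log2) in the 3 male groups and between 1.29 and 1.37 in the 3 female groups. Xist, the other sex gene looked up, averaged 2.43 over the 24 arrays. The mean of both genes per array was 1.98 to 2.56 in males and 1.68 to 2.03 in females of obese fathers. It overlapped between males and females of lean parents (1.81 to 2.33 and 1.80 to 2.46) and of obese mothers (1.74 to 2.50 and 1.78 to 2.25). Values of Xist alone by sex are not given here, so Eif2s3y is the only gene set against the labelled sex. Neither gene was brighter than 95% of the olfactory receptor genes on the array. Markers of trophectoderm, the outer layer of the blastocyst (Cdx2, Gata3, Eomes, Tfap2c, Krt8, Krt18 and Elf3), were all brighter than 95% of the olfactory receptor genes on the array, as were 5 of 6 markers of the inner cell mass.

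A microRNA gene is transcribed into a long primary transcript that folds into a hairpin. Drosha and Dgcr8 crop the hairpin in the nucleus, Dicer1 cuts it to a short duplex in the cytoplasm, and 1 strand guides an Argonaute protein to messenger RNAs that match its seed. In mouse embryos the cluster that begins with miR-290 is known as the main microRNA product of the blastocyst, with the miR-302 to miR-367 and miR-17 to miR-92 clusters active in the same or related cells. Probe positions were not used here, so signal from primary transcript, host transcript and hairpin cannot be told apart, and the mature RNA was not measured on its own. In pools of whole embryos, fewer cells of a type and less RNA per cell cannot be told apart.

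RefSeq (GRCm38.p6) held hairpins of 258 members and mature sequences of 270. The first set below shows members that carry 1 mature sequence at several places in the genome, since their probe sets stood apart most in the comparisons that follow. Hairpins are written 5′ to 3′ with the mature sequence in capitals. Mir680-1 lies at chr6:129691535-129691643 (plus strand), Mir680-2 at chrX:144297790-144297899 (plus strand) and Mir680-3 at chr12:35194811-35194897 (minus strand). Mir692-1 lies at chr17:6895229-6895337 (minus strand), and Mir692-2, which shared probe sets with the ferritin light chain gene Ftl1 in the annotation and is therefore no member, at chr4:125504749-125504857 (plus strand).
Mir680-1: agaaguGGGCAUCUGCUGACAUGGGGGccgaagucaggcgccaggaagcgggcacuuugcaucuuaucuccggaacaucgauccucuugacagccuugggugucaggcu
Mir680-2: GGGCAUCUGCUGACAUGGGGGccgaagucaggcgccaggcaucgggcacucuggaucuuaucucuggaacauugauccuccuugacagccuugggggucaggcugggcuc
Mir680-3: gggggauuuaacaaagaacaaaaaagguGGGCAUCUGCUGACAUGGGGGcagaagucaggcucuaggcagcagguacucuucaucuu
Mir692-1: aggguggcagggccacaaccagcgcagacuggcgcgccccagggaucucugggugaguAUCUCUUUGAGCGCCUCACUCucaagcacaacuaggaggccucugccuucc
Mir692-2: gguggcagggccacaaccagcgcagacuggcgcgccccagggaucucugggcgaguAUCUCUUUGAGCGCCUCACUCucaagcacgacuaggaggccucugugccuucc

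The hairpins of Mir692-1 and Mir692-2 were identical at 105 of 107 aligned bases (98.1%). Those of Mir680-1 and Mir680-2 matched at 96 of 103 aligned bases (93.2%), and those of Mir680-1 and Mir680-3 at 55 of 65 (84.6%). Probe sets for such near-copies may share RNA, so their values are uncertain as values of 1 locus. Other members, such as Mirlet7f-1 and Mirlet7f-2 or Mir16-1 and Mir16-2, also shared a mature sequence.

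The second set gives mature sequences of members that the comparisons name or that form the large seed groups, with the seed (bases 2 to 8) in capitals. The hairpin of Mir346 lies at chr14:34894609-34894706 (plus strand), that of Mir9-1 at chr3:88215598-88215686 (plus strand), that of Mir200a at chr4:156054896-156054985 (minus strand), that of Mir216a at chr11:28757012-28757083 (plus strand) and that of Mir374b at chrX:103573060-103573154 (minus strand).
mmu-miR-680 (Mir680-1, Mir680-2, Mir680-3): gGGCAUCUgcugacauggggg
mmu-miR-692 (Mir692-1): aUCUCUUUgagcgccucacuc
mmu-miR-346-5p: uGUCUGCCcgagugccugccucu
mmu-miR-9-5p: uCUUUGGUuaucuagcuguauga
mmu-miR-200a-3p: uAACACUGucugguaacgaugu
mmu-miR-200b-3p: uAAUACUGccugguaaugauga
mmu-miR-216a-5p: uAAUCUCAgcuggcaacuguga
mmu-miR-374b-5p: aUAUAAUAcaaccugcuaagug
mmu-let-7e-5p: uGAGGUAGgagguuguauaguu
mmu-let-7g-5p: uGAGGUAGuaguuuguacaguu
mmu-let-7f-5p (Mirlet7f-2): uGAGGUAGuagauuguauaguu
mmu-let-7d-5p: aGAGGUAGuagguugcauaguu
mmu-miR-17-5p: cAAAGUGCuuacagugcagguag
mmu-miR-106b-5p: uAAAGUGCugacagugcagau
mmu-miR-92b-3p: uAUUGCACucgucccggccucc
mmu-miR-212-3p: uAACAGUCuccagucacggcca

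The largest seed group among the members was that of let-7, with 9 genes. The seed of miR-92b was shared by 6 genes and so was that of miR-17. The seeds of miR-680 and miR-692 are not those of a large group.

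The members' mean signal over the 24 arrays had a median of 1.97 (log2), with a range from 0.97 to 8.15, while the median of all values in the table was 2.56. As a reference for genes with no known use in the blastocyst, the 1027 olfactory receptor genes had a median of 1.87 and a 95th percentile of 3.30. Of the 296 members, 66 (22.3%) had a mean above that percentile, near the share of all genes that did (24.3%). In every one of the 24 arrays 72 members exceeded the table's median, and 138 did so in no array.

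The brightest member was Mir328, at 8.15 ± 0.29 (SD over 24 arrays), followed by Mir92b at 6.98 ± 0.30 and Mir320 at 6.79 ± 0.24. Mir212 had a mean of 6.57 ± 0.29, Mir185 of 6.20 ± 0.23, Mir3107 of 6.10 ± 0.33 and Mir187 of 6.04 ± 0.41. Mir346 was at 5.99 ± 0.39, Mir692-1 at 5.73 ± 1.05 and Mir194-2 at 5.68 ± 0.41. Signals of different probe sets depend on their probes, so this order ranks probe sets and not transcripts. Mir92b belongs to the seed group of miR-92a, and Mir212 is known for its role in neurons. None of the 10 showed a difference that passed the test described further on.

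Signal followed base composition. Over the 258 members with a hairpin sequence, mean signal and GC content had a Pearson correlation of 0.713 and a Spearman correlation of 0.760, points that share the same 24 arrays and probe design. Leaving out any 1 array kept the Spearman value between 0.757 and 0.762. Among the 65 members of lowest GC content (28.4% to 42.4%), 1 exceeded the olfactory receptor percentile and the median signal was 1.295. Among the 65 of highest GC content (53.7% to 69.2%), 33 did so (50.8%) and the median was 3.31. The correlation was also found within the Dlk1-Dio3 region, where microRNAs share a few long transcripts. Over 37 of its members with a sequence, the Spearman value was 0.815. Mir496a and Mir299a, of the same region, were not on the list used. Hairpin length had a Spearman correlation of 0.203 with signal.

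**Figure D1:**
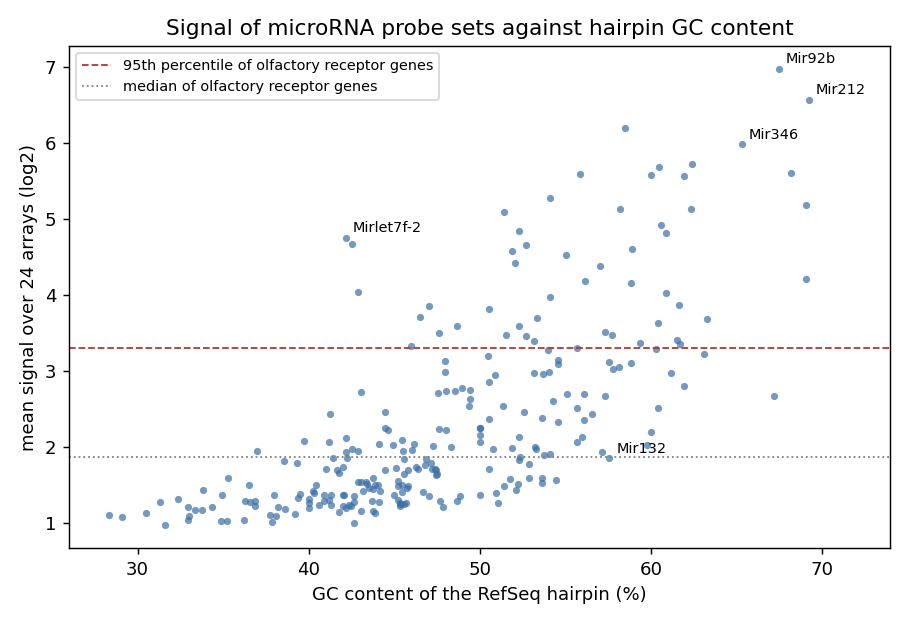
Mean signal over 24 arrays (log2, vertical axis) against the GC content of the RefSeq hairpin (percent, horizontal axis) for 258 microRNA genes, 1 point each. The dashed line at 3.30 is the 95th percentile of the olfactory receptor genes and the dotted line at 1.87 their median; points above the dashed line lie mostly at high GC content, and Mirlet7f-2 stands above it at a GC content of 42.2%.

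A pair of neighbours at the extremes shows the contrast between genes of 1 transcript unit. Mir212 and Mir132 lie within 10000 bases of each other on the same strand, yet Mir212 had a mean signal of 6.57 and a hairpin GC content of 69.2%, and Mir132 had 1.85 and 57.6%. Mir132 was thus among the 65 members of highest GC content, but dimmer than their median of 3.31, so GC content alone did not set its signal. The hairpin of Mir212, at chr11:75173388-75173478 (plus strand), and that of Mir302a, a dim member at chr3:127545496-127545564 (plus strand) with a mean of 1.23 and a GC content of 42.0%, are written here with the mature sequences that RefSeq gives in capitals (both arms of Mir212 and the 5p arm of Mir302a) to show the difference in composition.
Mir212: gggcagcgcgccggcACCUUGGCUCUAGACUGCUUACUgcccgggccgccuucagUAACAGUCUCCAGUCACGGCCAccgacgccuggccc
Mir302a: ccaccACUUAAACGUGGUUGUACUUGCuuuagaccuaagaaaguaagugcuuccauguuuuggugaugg

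In all, 130 members lay in 40 such groups of same-strand neighbours. The difference between the brightest and the dimmest mean in a group had a median of 0.69, from 0.03 to 4.72, the last being Mir212 with Mir132. Counted separately, 131 members lay inside another gene on the same strand, and for 96 of them that host had a probe set of its own. Across the 24 arrays the correlation between member and host over 97 pairs had a median of 0.0757, with a range from -0.746 to 0.633; it was positive in 55 pairs and above 0.5 in 7. The lowest value belonged to Mirlet7f-2 and its host Huwe1, a ubiquitin ligase. The pairs share the same arrays.

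The families known from early embryos differed in signal. No probe set with 1 symbol covered the miR-290 cluster, so its expression was not analysed here. The 5 members of the miR-302 to miR-367 cluster, known from pluripotent cells, had means from 1.005 to 1.35, and the 5 of the miR-17 to miR-92 cluster, known to promote proliferation, from 1.13 to 1.56, none above the olfactory receptor percentile. In the related miR-106b to miR-25 cluster Mir93 stood at 3.31 ± 0.24, just above the percentile, Mir25 at 3.23 ± 0.24 and Mir106b at 2.67 ± 0.33. The X-linked miR-106a to miR-363 cluster held 5 members with means up to 2.01, the mean of Mir92-2.

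Of the let-7 family, known for restraining pluripotency and growth and held back in early cells by Lin28a, 5 of 10 members exceeded the percentile. Mirlet7e was at 5.14 ± 0.33, Mirlet7g at 4.84 ± 0.26, Mirlet7f-2 at 4.76 ± 0.41 and Mirlet7a-1 at 4.67 ± 0.41, while Mirlet7f-1, which encodes the same let-7f, was at 1.79 ± 0.19. Signal of the 10 let-7 probe sets had a Spearman correlation with GC content of 0.285. Of the 38 members listed by symbol for the imprinted Dlk1-Dio3 region, expressed from the maternal copy, 8 exceeded the percentile. They were led by Mir667 at 5.56 ± 0.21 and Mir134 at 4.92 ± 0.30. The list left out Mir496a (1.66) and Mir299a (2.43) of the same region, both below the percentile. The 4 members of the miR-200 family, known from epithelia, had means between 1.49 and 2.70. The Sfmbt2 intron holds a cluster known to be active in mouse trophoblast. The 5 members assigned to its families by symbol, and not by position, reached at most 2.99. Of the X-linked group of miR-465, miR-743 and miR-883, known from the testis, Mir463, Mir465, Mir470 and Mir471 were members and reached at most 1.499.

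**Figure D2:**
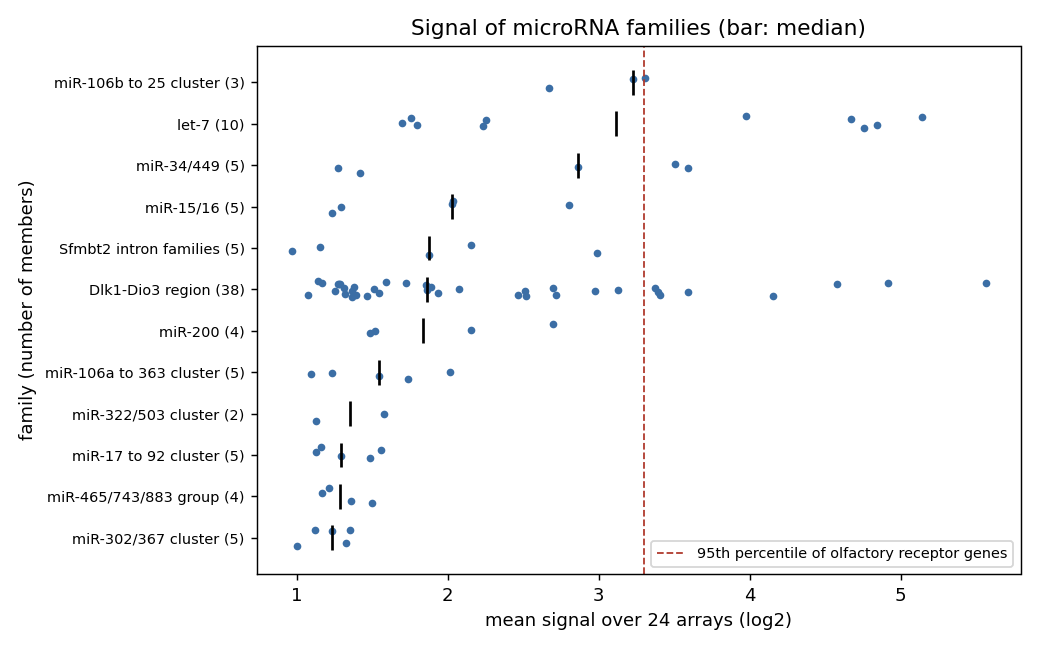
Mean signal over 24 arrays (log2, horizontal axis) of the members of 12 microRNA families (vertical axis, number of members in brackets), 1 point per member with a bar at the family's median. The dashed line at 3.30 is the 95th percentile of the olfactory receptor genes; 5 let-7 and 8 Dlk1-Dio3 members lie to its right, and none of the miR-302 to miR-367 and miR-17 to miR-92 clusters.

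The proteins that make and use microRNAs were read from their own probe sets. Of 21 such genes, 5 exceeded the olfactory receptor percentile: Ran, which powers nuclear export, at 6.59 ± 0.91; Ddx5, a helicase of the Drosha complex, at 5.31 ± 0.93; Ago2, the slicing Argonaute, at 4.46 ± 0.49; Tarbp2, a partner of Dicer1, at 4.38 ± 0.15; and Lin28a, which blocks let-7 maturation, at 3.34 ± 0.32. Drosha had a mean of 2.84 ± 0.32, Dgcr8 of 2.73 ± 0.35 and Dicer1 of 2.62 ± 0.38.

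The study asked whether embryos of obese parents differ from those of lean parents, and whether the answer depends on the embryo's sex. Each comparison was tested with limma on the log2 values of all 24 arrays, and a gene was called when its p-value, adjusted by Benjamini-Hochberg over all 19938 genes, was below 0.05. No microRNA gene was called in any of the 14 comparisons. The share of all genes called was 0.00502% for obese fathers against lean parents in males, where the 1 called gene was not a microRNA, and also 0.00502% for obese mothers against obese fathers in males and for male against female embryos of obese fathers; it was 0.0% in the other 11. The 4 obese-against-lean comparisons share lean arrays in pairs: both kinds of obese parents are set against the same 4 lean arrays of each sex.

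In male embryos of obese fathers, 53 of 296 members (17.9%) had an unadjusted limma p below 0.05 against males of lean parents, where 14.3% of all genes had one. Members with higher means numbered 24 (8.11%, against 3.28% of all genes) and those with lower means 29 (9.80%, against 11%). The median difference was -0.11 over the members and -0.13 over all genes. The smallest adjusted p of a member was 0.231. Centring each array on its median moved the median of all genes to -0.02 and turned the split to 34 higher and 19 lower members, against 5.01% and 6.01% of all genes. Leaving out single arrays moved the shares on both sides. The higher side then held 19 to 27 members (6.42% to 9.12%), against 1.5% to 5.28% of all genes. It held 19 (6.42%, against 4.35%) without lean-parent male array 3 and 25 (8.45%, against 5.28%) without array 22 of the obese-father females. Without obese-father male array 12 it held 19 (6.42%, against 1.5%). The lower side moved for members and for all genes alike. It held 10 members (3.38%, against 5% of all genes) without obese-father male array 12 (29 on both sides together). It held 18 (6.08%, against 5.77%) without lean-parent male array 4 and 48 (16.2%, against 15.5%) without lean-parent male array 3. Without array 22 of the obese-father females it held 45 (15.2%, against 14.8%).

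Mir680-1 had the smallest p of all members. Its signal was 4.64, 4.17, 3.90 and 4.46 in the 4 male pools of obese fathers and 2.82, 2.01, 2.52 and 2.07 in the 4 male pools of lean parents. The groups did not overlap. The difference was 1.94 (log2, SE 0.38), with an adjusted p of 0.231 in limma and an exact two-sided permutation p of 0.0286, the smallest that 4 against 4 arrays allow. The mean in males of lean parents, 2.35 ± 0.38, lay below the olfactory receptor percentile of 3.30, so the size of the difference is uncertain. It stayed between 1.82 and 2.09 when any 1 array was left out. Mir680-1 was called when the fit held only the groups compared (adjusted p = 0.0437 in limma) and when array 15 of the lean-parent females, which belongs to neither group, was left out (adjusted p = 0.0135 in limma). That array had the highest Mir680-1 signal of all 24, 4.74.

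The other members with miR-680 sequence and Mir692-1, named here after their values were seen, had higher means in the same pools. Mir680-3 averaged 3.51 ± 0.50 (SD, n = 4) in males of obese fathers and 2.16 ± 0.27 in males of lean parents, a difference of 1.35 (SE 0.49, adjusted p = 0.319 in limma). Mir680-2 averaged 5.75 ± 1.07 against 4.30 ± 0.47, a difference of 1.45 (SE 0.56, adjusted p = 0.319 in limma), with overlapping arrays. Mir692-1 averaged 7.13 ± 0.54 against 5.32 ± 0.44, a difference of 1.81 (SE 0.56, adjusted p = 0.314 in limma). None of the 3 passed the test. In females of obese fathers the means of Mir680-2 and Mir692-1 were below those of females of lean parents, at 4.04 ± 0.54 against 5.19 ± 1.22 and 4.99 ± 0.68 against 6.01 ± 1.15.

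These genes also varied most among pools of 1 group. Mir680-2, Mir692-1 and Mir680-3 had the 3 largest standard deviations within groups of all members, at 0.88, 0.88 and 0.75 (log2), where the median member had 0.26. Across the 24 arrays, Pearson correlations among Mir680-1, Mir680-2, Mir680-3 and Mir692-1, which lie on 4 chromosomes, were between 0.637 and 0.740. Spearman correlations were between 0.502 and 0.723. Group means were not removed, and the genes were brought together after their values were seen. Their shared higher means in males of obese fathers thus enter these correlations, which give no separate support. Array 15 of the lean-parent females (6.45 for Mir680-2 and 6.91 for Mir692-1) and array 6 of the obese-mother males (5.68 and 6.66) were high for these genes too. Mir692-1 had a correlation of 0.512 with Ftl1 across arrays, and of 0.0567 to 0.569 with the 4 probe sets annotated to both Ftl1 and other Mir692 copies. Ftl1 itself had a correlation of 0.908 with the spread of the arrays (the standard deviation of an array's probe sets). The set at 0.0567 had one of -0.0997 with that spread, and the other sets had 0.917 to 0.940. For Mir692-1 it was 0.585, for Mir680-1 0.296, for Mir680-2 0.240 and for Mir680-3 0.613. The parts of shared sequence and of the arrays' spread in the correlations between genes were not tested.

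**Figure D3:**
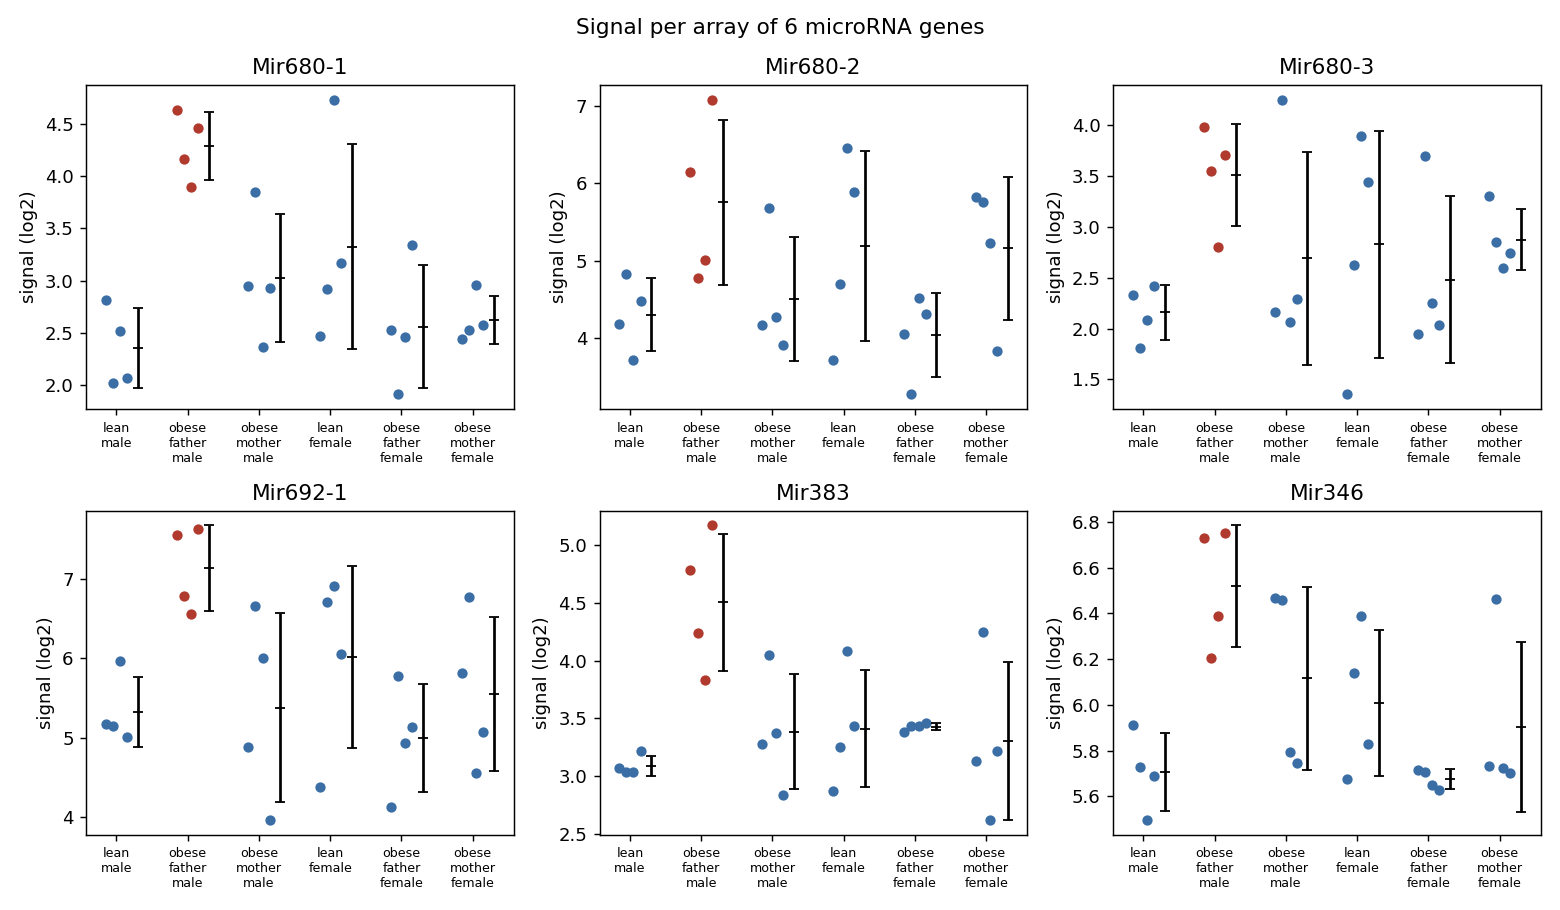
Signal (log2, vertical axes) of Mir680-1, Mir680-2, Mir680-3, Mir692-1, Mir383 and Mir346 in the 4 arrays of each of the 6 groups (horizontal axes); points are arrays, red for males of obese fathers, and the black marks give the mean and SD. For Mir680-1, Mir383 and Mir346 the red points, from 3.90, 3.83 and 6.21 up, lie above all 4 points of the lean-parent males.

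Mir383 had the next smallest p. It stood at 4.78, 4.24, 3.83 and 5.17 in males of obese fathers and at 3.07, 3.04, 3.04 and 3.22 in males of lean parents, without overlap. The difference was 1.41 (SE 0.31) with an adjusted p of 0.314 in limma, against a mean in males of lean parents (3.09 ± 0.08) below the olfactory receptor percentile. Mir346 stood at 6.73, 6.21, 6.39 and 6.75 against 5.91, 5.73, 5.50 and 5.69, again without overlap. Its difference of 0.81 (SE 0.20, adjusted p = 0.314 in limma) turned to -0.081 after quantile normalization of the arrays, so its direction depends on the scaling.

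Mir9-1, best known from the nervous system, averaged 2.02 ± 0.28 against 1.25 ± 0.11 (SD, n = 4), a difference of 0.77 (SE 0.21, adjusted p = 0.314 in limma). Mir200a averaged 1.82 ± 0.21 against 1.34 ± 0.16, a difference of 0.49 (SE 0.14, adjusted p = 0.314 in limma). Both lay below the olfactory receptor percentile in both groups. Within the miR-200 family, known from epithelia and transcribed from a locus on chromosome 4 and another on chromosome 6, 3 of 4 members had an unadjusted p below 0.05, all with higher means: Mir200a, Mir200b with a difference of 0.46 and Mir200c with 0.48. Mir141 differed by 0.09, and the family's median difference was 0.47. Of all genes, 3.28% were higher at such a p, and all 4 members averaged below the olfactory receptor percentile over the 24 arrays.

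Among members with lower means, Mir216a came first. It stood at 2.39, 2.03, 2.12 and 2.13 in males of obese fathers and at 3.12, 2.50, 2.45 and 3.35 in males of lean parents, which did not overlap. The difference was -0.69 (SE 0.18, adjusted p = 0.314 in limma). Mir374b, in the X-linked Ftx gene next to Xist, differed by -0.48 (SE 0.15, adjusted p = 0.314 in limma) and Mir496a, of the Dlk1-Dio3 region, by -0.37 (SE 0.13, adjusted p = 0.317 in limma). Mir409, of the same region, differed by -0.60 (SE 0.21, adjusted p = 0.319 in limma) and Mir713 by -0.70 (SE 0.25, adjusted p = 0.319 in limma), the latter with overlapping arrays. The Mir409 difference was -0.37 without obese-father male array 12 and -0.26 with the arrays' spread as a covariate. The Mir713 difference was -0.31 with that covariate and -0.22 with the mean of its probe sets, and that of Mir496a was -0.24 after quantile normalization.

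Over the whole list, the arrays of the 2 groups did not overlap for 35 of 296 members (11.8%) and for 8.58% of all genes. Other families gave few small p-values in this comparison, where 3.28% of all genes were higher and 11% lower at an unadjusted p below 0.05. Of the 38 listed Dlk1-Dio3 members, 2 were higher and 4 lower at such a p, with a median difference of -0.11. Mir496a, of the same region and also lower at such a p, was not on that list. Of the 10 let-7 members, 2 were lower, Mirlet7f-2 by -0.72 (SE 0.26) and Mirlet7a-1 by -0.58 (SE 0.26), none was higher, and the median was -0.20. These let-7 members, and those of the miR-17 seed that follow, were named after their values were seen. The 5 members of the miR-302 to miR-367 cluster had none on either side. Of the 6 members with the miR-17 seed, Mir17 differed by 0.43 and Mir106b by 0.62, both at such a p, Mir20a by 0.20, Mir93 by -0.07, Mir20b by -0.21 and Mir106a by -0.23.

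Differences in this comparison ran beside a difference between the arrays. The spread of an array's values (the standard deviation of its probe sets) was 1.56 ± 0.11 in males of obese fathers and 1.38 ± 0.12 in males of lean parents (SD, n = 4). Across the 24 arrays, the signal of 242 of 296 members (81.8%) correlated negatively with that spread, with a median Pearson correlation of -0.420. This was near the values over all genes, of which 75.6% were negative with a median of -0.433, and 96.8% of olfactory receptor genes were negative. The spread is computed from the same arrays. Among the 66 members above the olfactory receptor percentile the median was -0.706 and 56 were negative (84.8%), where 59.9% of all genes above it were. All 29 members with lower means in males of obese fathers had a negative correlation, with a median of -0.778, and 22 of the 24 higher ones had a positive one. These members were picked by a difference between groups that also differ in spread, and the arrays of both groups enter the correlation. Its signs were thus largely set by that choice and give no separate support. With the spread as a covariate, 23 members were higher and 4 lower at an unadjusted p below 0.05, against 2.35% and 4.43% of all genes, the difference of Mir680-1 was 1.98 and that of Mir383 was 1.17. Without the covariate, 3.28% of all genes were higher and 11% lower in males of obese fathers at an unadjusted p below 0.05. Of 6 marker genes of granulosa and cumulus cells, the companions of the egg, 4 had lower means in these pools at such a p. None was called, and array means were 2.60 to 3.02 against 3.02 to 3.46. Of 7 trophectoderm markers, 6 had higher means in these pools, 2 of them at an unadjusted p below 0.05 (Krt18 by 1.16 and Eomes by 0.52), with array means of 4.73 to 5.62 against 4.34 to 5.01. Of 6 inner cell mass markers, 4 had higher means, with Pou5f1 (1.73) at such a p. Of 5 primitive endoderm markers, 3 had higher means and 1 was lower at such a p. Higher means were found for 1 of 4 blood, 0 of 4 uterine and oviduct and 1 of 5 sperm markers. The uterine and oviduct list and the sperm list each had 1 marker lower at such a p, the blood list 0. None of the markers on these lists was called. Their part in the microRNA values was not tested.

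**Figure D4:**
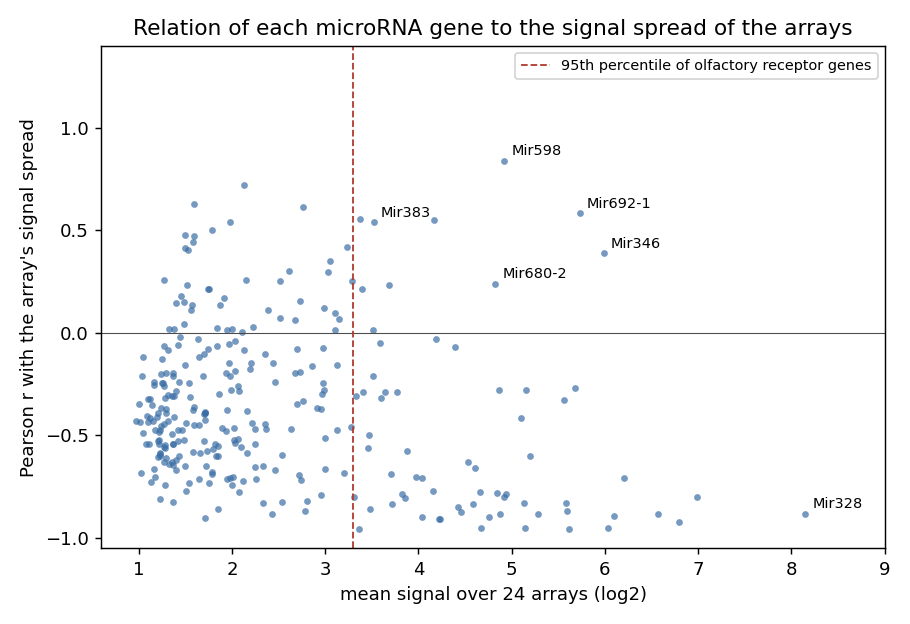
Pearson correlation of each microRNA gene's signal with the signal spread of the 24 arrays (vertical axis) against its mean signal (log2, horizontal axis), 1 point for each of 296 genes. Right of the dashed line, the 95th percentile of the olfactory receptor genes at 3.30, 56 of 66 points lie below 0; Mir598 (0.840, named after its value was seen), Mir692-1, Mir383, Mir346 and Mir680-2 lie above 0.

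In female embryos of obese fathers, 9 of 296 members (3.04%) had an unadjusted p below 0.05 in limma, all with lower means, where 3.02% of all genes had one (1.97% higher and 1.05% lower). The count was 16, 14, 5 and 5 without lean-parent female arrays 13, 14, 15 and 16, and 20 without array 22 of the obese-father females. The median difference from females of lean parents was -0.04 over the members and 0.02 over all genes. Mir693 had the smallest p and averaged 2.22 ± 0.41 against 2.74 ± 0.14 (SD, n = 4), a difference of -0.51 (SE 0.16, adjusted p = 0.9999 in limma), without overlap. Mir297b, by symbol of the Sfmbt2 intron families, stood at 1.44, 0.82, 1.37 and 1.35 against 1.50, 1.85, 3.78 and 1.74, a difference of -0.98 (SE 0.43, adjusted p = 0.9999 in limma). Mir665, Mir676 and Mirlet7d differed by -0.67, -0.42 and -0.58. On the higher side the smallest p belonged to Mir599 (0.85), Mir190b (0.28), Mir296 (0.30), Mir15b (0.28) and Mir701 (0.30), none with an unadjusted p below 0.05. Mir599 stood at 1.30, 4.57, 1.55 and 1.54 in arrays 21 to 24 of the obese-father females, so that 1 array carried its mean. Without that array, 22, the difference of Mir599 was 0.075 and that of Mir693 -0.31; with array weights they were 0.21 and -0.32. Without lean-parent female array 15, Mir297b differed by -0.46 and Mirlet7d by -0.33, and without lean-parent female array 16, Mir676 by -0.28. Without obese-father female array 24, Mir190b differed by 0.079 and Mir15b by 0.17, and without array 21, Mir701 by 0.076. Mir190b differed by 0.44 without array 22, and Mir701 by 0.48 with array weights.

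In male embryos of obese mothers, 10 of 296 members (3.38%) had an unadjusted p below 0.05 in limma against males of lean parents, 4 higher and 6 lower, where 2.19% of all genes had one (0.747% higher and 1.44% lower). The count was 6 without obese-mother male array 6. Mir135b differed by 0.42 (SE 0.16), Mir200b by 0.49 (SE 0.20), Mir676 by 0.35 (SE 0.16) and Mir194-2 by 0.53 (SE 0.25). Mir194-2, the brightest of these, stood at 6.02, 6.54, 5.82 and 5.68 against 5.63, 5.24, 5.43 and 5.66, without overlap; its difference was 0.25 after quantile normalization. Without obese-mother male array 6, Mir200b differed by 0.29. On the lower side were Mir363 (-0.35), Mir218-1 (-0.43), Mir374b (-0.38), Mir495 (-0.42) and Mir138-2 (-0.45), each with an adjusted p of 0.9999 in limma. Without lean-parent male array 1, Mir218-1 differed by -0.21. The miR-200 family had a median difference of 0.23, with 4 of 4 above 0 and 1 at an unadjusted p below 0.05. These males and those of obese fathers are set against the same lean arrays.

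In female embryos of obese mothers, 7 of 296 members (2.36%) had an unadjusted p below 0.05 in limma, 6 higher and 1 lower, where 2.52% of all genes had one (1.91% higher and 0.612% lower). The count was 14 without lean-parent female array 13 and 11 without array 22 of the obese-father females. Mir412, of the Dlk1-Dio3 region, averaged 2.18 ± 0.38 against 1.60 ± 0.11 (SD, n = 4) in females of lean parents, a difference of 0.58 (SE 0.19, adjusted p = 0.999 in limma), without overlap. Mir216b differed by 0.36, Mir148a by 0.45, Mir130b by 0.54 and Mir375, known from pancreatic islets, by 0.45. The arrays of Mir130b and Mir375 did not overlap between the groups. Mir709, the only lower member at that p, differed by -0.27 (SE 0.13).

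**Figure D5:**
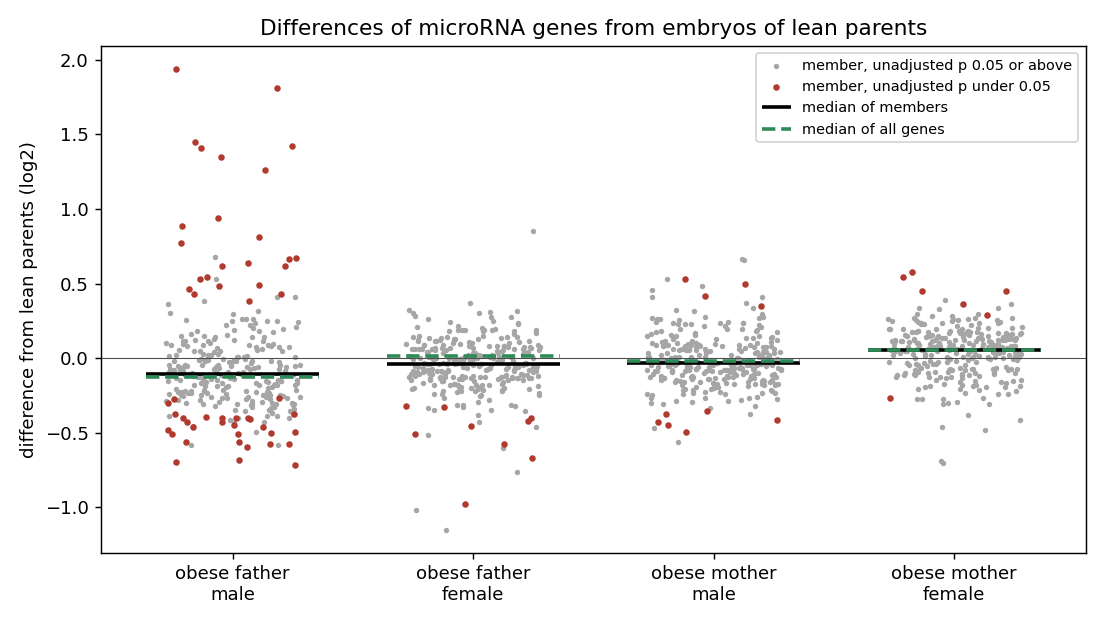
Difference from embryos of lean parents (log2, vertical axis) for 296 microRNA genes in the 4 comparisons (horizontal axis), 1 point per gene, red where the unadjusted limma p was below 0.05. Solid bars mark the median of the members and dashed bars that of all genes; males of obese fathers show 53 red points, up to 1.94, and the other comparisons 9, 10 and 7.

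The difference of the obese-father effect between the sexes was tested directly. No member was called, and 41 of 296 (13.9%) had an unadjusted p below 0.05 in limma, where 7.52% of all genes had one. In 29 of them (9.80%, against 1.55% of all genes) the difference from lean parents was higher in males than in females, and in 12 it was lower, against 5.96% of all genes. Mir680-1 had an interaction of 2.71 (SE 0.53, adjusted p = 0.656 in limma) and Mir346 one of 1.15 (SE 0.28, adjusted p = 0.656 in limma). Over the alternatives and the fits without 1 array, the adjusted limma p of the Mir680-1 interaction ranged from 0.092 to 0.888. The Mir346 interaction was 0.18 after quantile normalization. Array 22 of the obese-father females had the widest spread of all arrays, 1.81. Without it, 24 members (8.11%) were on the higher side, against 5.12% of all genes, and 52 (17.6%) on the lower, against 16.7%. The lower side held 19 members (6.42%) without lean-parent female array 13 or lean-parent male array 3, against 8.28% and 8.5% of all genes. It held 6 (2.03%) without obese-father female array 24, against 4.07%. For obese mothers, 10 members (3.38%) had an unadjusted p below 0.05 in the interaction, 3 higher and 7 lower, where 2.93% of all genes had one (0.762% higher and 2.17% lower), led by Mir676 at 0.66 (SE 0.22). That count was 16 without lean-parent female array 13, lean-parent male array 3, obese-father female array 22 or obese-mother male array 5.

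Between male and female embryos of obese fathers, 34 members (11.5%) had an unadjusted p below 0.05 in limma, where 5.65% of all genes had one. Of these, 28 were higher in males, against 1.33% of all genes, and 6 lower, against 4.32%. Mir680-1 averaged 4.29 ± 0.33 in males and 2.56 ± 0.59 in females (SD, n = 4), a difference of 1.73 (SE 0.38, adjusted p = 0.567 in limma) without overlap. Its adjusted limma p ranged from 0.065 to 0.9999 over the alternatives and the fits without 1 array. Without array 22 of the females, 22 members (7.43%) were higher, against 5.3% of all genes, and 51 (17.2%) lower, against 15.8%. The lower side held 11 members (3.72%, against 4.49% of all genes) without obese-father male array 11. It held 3 (1.01%) without lean-parent female array 14, obese-father male array 12 or obese-mother female array 19. It also held 3 without any 1 of obese-mother male arrays 5 to 8. In the fits that held 3, the lower share of all genes was 2.54% to 4.27%. In embryos of lean parents, 15 members (5.07%) had an unadjusted p below 0.05 between the sexes, 8 higher in males and 7 lower, where 3.57% of all genes had one (2.71% and 0.853%), and 9 had one without lean-parent female array 15. There Mir680-1 differed, male minus female, by -0.97 (SE 0.38, adjusted p = 0.995 in limma), with overlapping arrays, and by -0.50 without lean-parent female array 15. In embryos of obese mothers, 4 members (1.35%) had one, all lower in males, where 1.73% of all genes did (0.777% higher and 0.953% lower). Leaving out 1 array took that count to between 3 and 10, the last without obese-mother female array 18, and to 7 without obese-father female array 22 or obese-mother male array 5, 6 or 8. Over all parents, 13 members (4.39%) had such a p between the sexes, 7 higher in males and 6 lower, where 2.37% of all genes had one (0.988% and 1.38%), led by Mir194-1 at 0.40 (SE 0.13) and Mir141 at -0.29 (SE 0.11). That count was 8 without lean-parent female array 13 and 25 without obese-father female array 22. The 39 X-linked members had a median sex difference of 0.01 over all parents, with 1 higher in males and none lower at such a p.

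Males of obese mothers and males of obese fathers were also compared with each other, which uses no lean array. Of the members, 27 (9.12%) had an unadjusted p below 0.05 in limma, 16 higher and 11 lower after obese mothers, where 8.31% of all genes had one (6.58% higher and 1.73% lower). The count was 15 without obese-father male array 12, 44 without obese-mother male array 6 and 43 without obese-father female array 22. Mir496a differed by 0.52 (SE 0.13, adjusted p = 0.580 in limma) and Mir205 by 0.55 (SE 0.17). Mir341 differed by -1.18 (SE 0.33) and Mir383 by -1.12 (SE 0.31). In females, 7 members (2.36%) had such a p, all higher after obese mothers, where 3.37% of all genes had one (2.16% higher and 1.21% lower), with Mir211 at 0.49 (SE 0.15) and Mir345 at 0.44 (SE 0.15). Mir345 differed by 0.29 with array weights. That count was 12 without obese-father female array 21 or 23 and 15 without array 24.

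With both sexes averaged, 18 members (6.08%) had an unadjusted p below 0.05 in limma between obese fathers and lean parents, 5 higher and 13 lower, where 7.61% of all genes had one (2.38% higher and 5.23% lower). The count was 32 without lean-parent female array 15, 30 without lean-parent male array 3 and 36 without obese-father female array 24. Mir200a led the higher side at 0.35 (SE 0.10, adjusted p = 0.638 in limma) and Mir532 the lower at -0.40 (SE 0.14). The Mir532 difference was -0.26 with array weights and -0.22 with the spread covariate. Between obese mothers and lean parents 3 members (1.01%) had such a p, all higher, where 1.85% of all genes had one (1.12% higher and 0.727% lower), with Mir148a at 0.32 (SE 0.12). With so few, leaving out single arrays took that count to between 2 and 9, the last without lean-parent female array 13. It was 7 without lean-parent male array 4, 6 without obese-mother male array 6, and 5 without lean-parent male array 1, obese-father female array 22, obese-mother female array 17, 18 or 19, or obese-mother male array 5.

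The genes of microRNA processing gave no call in the 4 comparisons with lean parents either. At an unadjusted p below 0.05, 1 of the 21 was higher and 2 were lower in males of obese fathers. Of all genes, 3.28% were higher and 11% lower there. In males of obese fathers, Ran had an unadjusted p below 0.05 with a difference of 1.28 (SE 0.58, adjusted p = 0.336 in limma), and its signal had a correlation of 0.943 with the arrays' spread. Tarbp2 differed by -0.27 (SE 0.11, adjusted p = 0.324 in limma) and Prkra, another partner of Dicer1, by -0.45 (SE 0.19, adjusted p = 0.324 in limma). Dicer1 differed by 0.36 (SE 0.26), Drosha by -0.14 (SE 0.22), Dgcr8 by 0.07 (SE 0.26) and Lin28a by -0.07 (SE 0.23). In the other 3 comparisons with lean parents, none of the 21 genes had an unadjusted p below 0.05.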

How the data were processed

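The values are log2 signals as deposited. RMA and the affy package are named in the submitters' processing notes, with no version or order, and the lysates were amplified and biotin-labelled with NuGEN kits, per the labels' protocols. Of 35556 probe sets, 21789 had 1 gene symbol, 1621 several and 12146 none in GEO's platform annotation; 61 sets with several symbols included a microRNA and were not used. All 24 arrays were fitted together as 6 group means with limma 3.58.1 in R 4.3.3 (lmFit and eBayes), with no filter on low signal and Benjamini-Hochberg adjustment over 19938 genes. The fit was tested on simulated data. The number of arrays limits the precision. The members and gene lists were chosen with earlier results of these data known. Genes were named by rule: in each comparison with lean parents the 5 members of smallest p on each side, in the others the 2 on each side, the 10 brightest members and the 2 brightest of each family; others are said to be chosen after their values were seen. Hairpins, mature sequences and coordinates came from RefSeq (GRCm38.p6) by gene ID; 296 of 296 gene IDs matched. Alternatives were a filter on low signal, the handling of several probe sets, the prior, array weights, the spread covariate, centring, quantile normalization, fits of only the groups compared, a looser threshold and leaving out each array. Scan dates were not used here.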

Additional observations from a re-analysis of the deposited data

Results flagged for a closer look

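Single arrays stood apart from the other 3 of their group for 11 of 145 combinations of named gene and group that were checked, and for 134 of 1776 (7.55%) over all members, where chance gives about 1 in 20. The gap to the nearest array, as a share of the group's range, exceeded Dixon's critical value for 4 samples. Among males of obese fathers, the lowest Mir205 signal was 1.58 and the lowest Mir409 signal 3.53. Among females of obese fathers, the lowest Mir297b signal was 0.82 and the highest Mir599 signal 4.57. In females of lean parents, the highest signals were 3.78 for Mir297b and 1.84 for Mir592, and in males of lean parents the lowest for Mir363 was 1.10 and the highest for Mir9-1 1.42. In males of obese mothers the highest signals were 4.57 for Mir677 and 4.25 for Mir680-3, and in females of obese mothers the highest for Mir346 was 6.46. The Mir599 array was also the one of widest spread among all 24.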

How the results depend on the processing

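At an adjusted p below 0.05 in limma, no microRNA gene was called in 13 of the 14 comparisons under any alternative run. For obese fathers against lean parents in males, 1 member, Mir680-1, was called when only the groups compared were fitted, and leaving out 1 array gave between 0 and 1, the call arising without lean-parent female array 15. Quantile normalization turned the Mir346 difference in that comparison to -0.081. The Mir599 difference between females of obese mothers and of obese fathers turned to 0.026 with array weights, and ranged from -1.003 to 0.085 when arrays were left out, the last without obese-father female array 22. Counts at an unadjusted p below 0.05 ranged from 24 to 60 members over the alternatives and from 29 to 70 when arrays were left out in males of obese fathers, where 53 were counted. In the other comparisons with lean parents the alternatives gave 3 to 27 members in females of obese fathers (9 counted), 2 to 15 in males of obese mothers (10) and 1 to 26 in females of obese mothers (7). They gave 10 to 36 between males of obese mothers and of obese fathers (27), and 4 to 10 between those females (7). Between the sexes they gave 2 to 21 in embryos of lean parents (15), 16 to 64 of obese fathers (34), 0 to 12 of obese mothers (4) and 5 to 27 over all (13). The interactions gave 17 to 78 for obese fathers (41) and 2 to 22 for obese mothers (10), and with both sexes averaged the counts were 5 to 18 (18) and 0 to 9 (3). The cause of these moves was not tested, except that the filters on low signal tested fewer genes. No paired analysis was possible because the labels do not tie pools to parents. Male and female pools of 1 kind of parents may share a parent, which the tests between the sexes do not take into account. With 4 pools a group, exact permutation tests cannot go below 0.0286, and dim probe sets limit what can be seen for most members.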
